A study of Mus musculus with 8 samples.

Results

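Acute phase proteins are secreted plasma proteins whose synthesis changes during inflammation. The 10 genes described here were serum amyloid A 1, 2 and 3 (Saa1, Saa2, Saa3), haptoglobin (Hp), lipocalin 2 (Lcn2), orosomucoid 1 (Orm1), ceruloplasmin (Cp) and the serpins Serpina3f, Serpina3g and Serpina3n. They were chosen by name, with earlier results of these data known, and every array probe that RefSeq names gave to them was used. Of the 10, 9 had a probe and 9 entered the test, with 10 probes in all, among 25804 genes and unnamed probes tested. Serpina3g matched no probe and was not analysed here. The arrays measured total RNA of 3T3-L1 cells, mouse fibroblasts that can mature towards adipocytes. These had been cultured for 1 week in adipogenic medium and then received conditioned medium of human HL-60 leukemia cells, diluted 2-fold. The HL-60 cells were either a USP2 knockdown (USP2 is a ubiquitin-specific protease) or mock-transfected controls, and both were held for 5 days with 30 nM of the phorbol ester PMA, which drives them towards macrophage-like cells. All 4 groups thus carried supernatant of PMA-treated human cells. The groups were control supernatant for 3 h, knockdown supernatant for 3 h, and the same pair for 6 h, with 2 arrays each. The labels call the arrays of a group biological replicates but do not say whether they shared a batch of supernatant, so p-values measure the spread between these samples. An array gives RNA per total RNA, so a change in the number of expressing cells and a change in RNA per cell cannot be told apart. On the slide, control and knockdown arrays lay in different columns and 3 h and 6 h arrays in different rows, so group and slide position cannot be told apart.

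In the classical acute phase response, interleukin-6 and related cytokines act on liver cells through STAT3, while interleukin-1 and tumour necrosis factor act through NF-kB and C/EBP factors, and glucocorticoids add to both. Fat cells and fibroblasts make part of the same set: Saa3, Hp, Lcn2 and Orm1 are known products of adipose tissue. Saa1 and Saa2 travel on high-density lipoprotein, and Hp captures free haemoglobin. Lcn2 binds iron-carrying bacterial siderophores, Orm1 carries small lipophilic molecules, and Cp oxidises iron and carries copper. The Serpina3 genes are a mouse cluster of protease inhibitors related to human antichymotrypsin.

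A spot that the scanner software marked as well above background is called detected here. Per array, 50.7% to 55.9% of 59305 spots other than controls were detected, and replicate arrays correlated at 0.988 to 0.998 across the features tested. All 10 member probes were detected on all 8 arrays, apart from the dimmer Serpina3f probe on 1 control array at 3 h. Of their 80 spot readings, 0 were outliers, 0 were saturated and 0 lay in a bright patch of the array. The labelled cell type held in part. Of 12 adipocyte markers, 6 were detected on all arrays (Pparg, Cebpa, Fabp4, Lpl, Retn and Acp5), and 5 (Adipoq, Cidec, Lep, Cfd and Slc2a4) were on none. All 8 preadipocyte and fibroblast markers were. Of 10 hepatocyte markers, Apoa2 and Tat were detected on all 8 arrays and 3 on some, while Apob, Apoa1, Ttr, Fgb and Hnf4a were on no array. Of 8 macrophage and leukocyte markers, Ptprc and Adgre1 were on no array, while Csf1r, Itgam, Lyz2 and Cd14 were on all 8.

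The serum amyloid genes lie side by side on chromosome 7. Their promoters are shown because Saa1 and Saa2 are near-copies whose transcripts a probe may not tell apart, and because all 3 genes were called at 6 h. Each runs from 250 bases before the transcription start to 50 after it, 5′ to 3′ on the gene's own strand, from RefSeq on GRCm38.p6. Capitals mark matches to TTGCNNAA on either strand, a form of the sequence bound by C/EBP factors.
Saa1, chr7:46742931-46743230, minus strand: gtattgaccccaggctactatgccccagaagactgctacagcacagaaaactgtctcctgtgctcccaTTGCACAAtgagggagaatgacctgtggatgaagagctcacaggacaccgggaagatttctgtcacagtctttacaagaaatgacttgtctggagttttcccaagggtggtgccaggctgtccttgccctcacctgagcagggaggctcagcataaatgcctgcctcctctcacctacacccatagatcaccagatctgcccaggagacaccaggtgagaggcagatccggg
Saa2, chr7:46751583-46751882, plus strand: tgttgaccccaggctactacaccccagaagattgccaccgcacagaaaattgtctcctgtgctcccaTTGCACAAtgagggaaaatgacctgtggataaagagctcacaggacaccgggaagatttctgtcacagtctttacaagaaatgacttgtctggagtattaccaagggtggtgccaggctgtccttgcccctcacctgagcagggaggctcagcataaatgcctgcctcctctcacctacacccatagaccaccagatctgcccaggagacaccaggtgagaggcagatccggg
Saa3, chr7:46715627-46715926, minus strand: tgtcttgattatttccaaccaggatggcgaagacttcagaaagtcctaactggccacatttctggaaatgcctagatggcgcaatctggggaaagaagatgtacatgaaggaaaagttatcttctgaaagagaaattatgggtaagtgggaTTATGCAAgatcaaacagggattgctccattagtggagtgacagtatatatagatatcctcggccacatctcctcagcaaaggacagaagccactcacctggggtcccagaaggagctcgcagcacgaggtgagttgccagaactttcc
The Saa1 and Saa2 windows were identical at 287 of 301 aligned positions (95.3%), and both carried the same match, TTGCACAA. The Saa3 window shared 54.2% of aligned positions with that of Saa1, no more than the 54.2% that the Lcn2 window shared with Saa1. The Saa3 window carried TTATGCAA, a match read on the other strand.

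Saa3 had one of the largest responses of the group. Its log2 signal relative to the array's 75th percentile was 1.90 on both 3 h arrays with control supernatant and 2.74 and 2.67 with knockdown supernatant. At 6 h it was 2.57 on both control arrays and 4.50 and 4.57 with knockdown supernatant. The control and knockdown arrays were separate at each time. In processed signal, the 6 h arrays read 2839 and 3679 with control and 12290 and 13810 with knockdown supernatant. Saa3 was thus 1.75-fold higher at 3 h, a log2 fold change of 0.80 (SE 0.061 from 2 arrays a group, the ± of later values; limma adjusted p = 0.0244), and 3.90-fold higher at 6 h (1.96 ± 0.061; adjusted p = 0.00278).

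Saa1 read 0.64 and 0.37 for control, then 1.23 and 1.26 for knockdown supernatant at 3 h. After 6 h these were 1.09 and 1.00 against 2.63 and 2.69. The groups did not overlap at either time, yet the 3 h difference of 0.74 ± 0.10 missed the threshold (limma adjusted p = 0.0739), while the 6 h difference passed at 1.62 ± 0.10, or 3.07-fold (adjusted p = 0.00679). Saa2 was a dim probe, with -3.46 and -3.80 for control, then -3.12 and -2.95 for knockdown supernatant at 3 h. At 6 h the readings were -2.90 and -3.24 against -1.72 and -1.80. The groups of Saa2 did not overlap, but its control arrays lay farther apart than its knockdown arrays. Its difference at 3 h was 0.60 ± 0.16 (adjusted p = 0.276) and at 6 h 1.31 ± 0.16, or 2.48-fold (adjusted p = 0.0228). Whether the Saa1 and Saa2 probes each read 1 of these near-identical genes was not tested. Saa4, between Saa3 and Saa1 on the chromosome, was detected on no array.

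Haptoglobin was higher with knockdown supernatant at both times. Hp read 1.51 and 1.57 for control, then 2.19 and 2.24 for knockdown supernatant at 3 h, and 2.06 and 1.96 against 3.71 and 3.76 at 6 h. No control array reached a knockdown array of its time. Hp was 1.60-fold higher at 3 h (log2 0.67 ± 0.067; limma adjusted p = 0.041) and 3.30-fold higher at 6 h (1.72 ± 0.067; adjusted p = 0.00343).

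Lipocalin 2 was higher with knockdown supernatant at 6 h and did not pass at 3 h. Its promoter window is shown for comparison with the serum amyloid genes, with the same motif in capitals.
Lcn2, chr2:32387690-32387989, minus strand: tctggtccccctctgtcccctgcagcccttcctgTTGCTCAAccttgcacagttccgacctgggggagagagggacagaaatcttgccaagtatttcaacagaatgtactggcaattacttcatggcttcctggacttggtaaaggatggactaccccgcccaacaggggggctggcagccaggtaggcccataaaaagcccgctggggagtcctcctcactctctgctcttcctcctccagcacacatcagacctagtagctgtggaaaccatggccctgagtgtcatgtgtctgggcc
Lcn2 read 2.14 and 2.16 for control, then 2.32 and 2.19 for knockdown supernatant at 3 h. The 3 h difference was 0.11 ± 0.097, with a 95% interval from -0.13 to 0.35 (limma adjusted p = 0.811). At 6 h it read 1.91 and 2.02 with control and 2.49 and 2.71 with knockdown supernatant. That difference of 0.64 ± 0.097, or 1.56-fold, passed (adjusted p = 0.0381).

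Orosomucoid and ceruloplasmin did not pass at either time. Orm1 was dim, at -2.99 and -3.00 for control, then -3.17 and -3.08 for knockdown supernatant at 3 h, and at -3.13 and -3.22 against -3.08 and -3.05 at 6 h. Its differences were -0.13 (95% interval -0.30 to 0.039; limma adjusted p = 0.602) and 0.11 (-0.055 to 0.28; adjusted p = 0.412). The control and knockdown arrays of Orm1 did not overlap, but in opposite directions at the 2 times. Cp was a bright probe, with 5.05 and 4.96 for control, then 5.04 and 5.02 for knockdown supernatant at 3 h. At 6 h it read 5.07 and 5.23 against 5.41 on both knockdown arrays. The Cp differences were 0.027 at 3 h (-0.16 to 0.21; adjusted p = 0.968), with the sign turned without scaling between arrays, with normexp background correction and without control 3 h replicate 2, and 0.26 at 6 h (0.071 to 0.45; adjusted p = 0.16).

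Among the serpins, Serpina3f had the largest fold change of the members at both times and Serpina3n a smaller one. Both lie in a cluster on chromosome 12. Their promoters are printed because these paralogs, with 6 h fold changes of 4.22 and 1.62, shared 64.3% of aligned positions in the windows shown. With the window of the second annotated Serpina3f start it was 40.25%. Capitals mark TTGCNNAA as before and TTCNNNGAA, a form of the STAT site; Serpina3n held neither.
Serpina3f, first of 2 annotated starts, chr12:104214294-104214593, plus strand: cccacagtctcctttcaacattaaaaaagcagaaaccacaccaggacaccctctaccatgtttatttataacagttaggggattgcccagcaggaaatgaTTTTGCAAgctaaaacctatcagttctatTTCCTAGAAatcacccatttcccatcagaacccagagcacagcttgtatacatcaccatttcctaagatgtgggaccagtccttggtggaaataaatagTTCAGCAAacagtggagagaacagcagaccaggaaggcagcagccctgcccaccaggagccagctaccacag
Serpina3n, chr12:104406458-104406757, plus strand: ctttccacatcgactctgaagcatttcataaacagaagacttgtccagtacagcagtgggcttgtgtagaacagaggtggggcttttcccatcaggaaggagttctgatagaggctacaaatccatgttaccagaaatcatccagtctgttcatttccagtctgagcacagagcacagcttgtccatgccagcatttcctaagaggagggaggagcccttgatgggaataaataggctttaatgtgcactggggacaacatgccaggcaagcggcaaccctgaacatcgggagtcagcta
The brighter Serpina3f probe read -1.34 and -1.46 for control, then -0.02 and -0.04 for knockdown supernatant at 3 h, and -0.62 and -0.84 against 1.36 and 1.34 at 6 h. The difference was 1.37 ± 0.092 at 3 h, or 2.59-fold (limma adjusted p = 0.0171), and 2.08 ± 0.092 at 6 h, or 4.22-fold (adjusted p = 0.00343). Knockdown arrays at 3 h already lay above control arrays at 6 h.

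A second, dimmer Serpina3f probe read -4.39 and -5.42 for control, then -2.92 and -2.80 for knockdown supernatant at 3 h, and -3.71 and -3.66 against -1.96 and -2.05 at 6 h. With each probe as a feature of its own it did not pass, at 2.05 ± 0.31 for 3 h and 1.68 ± 0.31 for 6 h (limma adjusted p = 0.0905 and 0.0636). The brighter probe's effect was numerically greater at 6 h than at 3 h and the dimmer probe's was not, and 1 control reading of the dimmer probe was not detected. Serpina3n read -2.49 and -2.32 for control, then -2.19 and -2.12 for knockdown supernatant at 3 h, and -1.89 and -2.01 against -1.23 and -1.28 at 6 h. Its difference was 0.25 ± 0.086 at 3 h (adjusted p = 0.381) and 0.70 ± 0.086 at 6 h, or 1.62-fold (adjusted p = 0.0232). Whether these probes also bind transcripts of other Serpina3 paralogs was not tested.

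**Figure D1:**
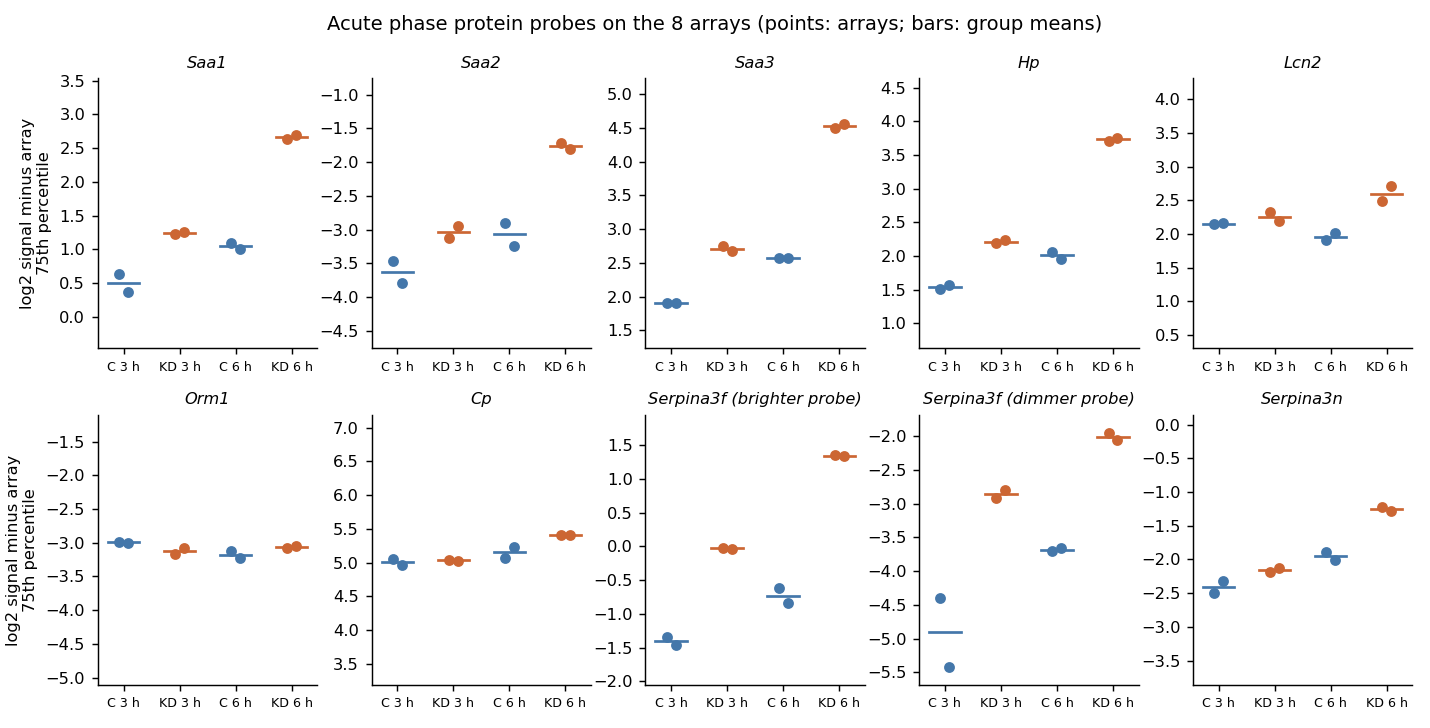
Log2 processed signal minus the array's 75th percentile for the 10 probes of the 9 measured genes in the 4 groups (C, control supernatant; KD, knockdown supernatant). Points are single arrays, bars are means of 2 arrays, every panel spans 4 log2 units, and levels of different probes are not comparable; the 2 knockdown arrays at 6 h lie highest in each panel except that of Orm1.

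Across the members, 3 of 9 were higher with knockdown supernatant at 3 h (Saa3, Hp and Serpina3f) and 0 were lower, where limma called 0.225% of all features higher and 0.0194% lower. At 6 h, 7 of 9 were higher and 0 lower, against 1.6% of all features higher and 0.682% lower; the exceptions were Orm1 and Cp. The median log2 fold change of the 9 was 0.60 at 3 h and 1.31 at 6 h, against -0.016 and 0.00015 over all 25804 features. The arrays of the 2 supernatants did not overlap, with knockdown higher, for 7 of 9 members at 3 h and 9 of 9 at 6 h, compared with 20.5% and 26% of all features. With knockdown lower it was 1 of 9 (Orm1) and 0 of 9, compared with 26.8% and 21.6%. Counted from the highest fold change down, Serpina3f held rank 19 of all features at 3 h and rank 58 at 6 h, and Saa3 ranks 162 and 67. Because the members were chosen with earlier results of these data known, these counts and ranks are a description only.

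Of the 3 calls at 3 h, Hp was lost whichever array was left out, with an adjusted p of up to 0.293. Saa3 and Serpina3f were lost without any of the 4 arrays of 3 h or either knockdown array of 6 h, with an adjusted p of up to 0.268. At 6 h, Saa3, Hp, Saa1 and Serpina3f passed whichever array was left out, with adjusted p of at most 0.0392, while Saa2 and Serpina3n were lost without any 1 of the 4 knockdown arrays (up to 0.106 and 0.109), and Lcn2 passed only when control 6 h replicate 2 was the array left out (up to 0.117). With the 4 arrays of 1 time fitted alone, 0 of 9 passed at 3 h and 0 of 9 at 6 h, and with no filter on dim features 0 and 3 (Saa3, Hp and Serpina3f). At 3 h Hp was also lost with array medians (limma adjusted p = 0.0545). Saa1, not called at 3 h, passed there with normexp, with features detected on all arrays, with array weights and with a trend of variance on intensity. At 6 h Lcn2 and Serpina3n were also lost without scaling (adjusted p = 0.329 and 0.167), with array weights and with the replicate block, Serpina3n with normexp (0.0628), and Saa2 with array weights (0.0581). Saa2 measured 0.77 with normexp in place of 1.31, still called. The summed signal of 5 macrophage and leukocyte markers, relative to the array's 75th percentile, was 41.9 to 43.9 with control and 52.4 to 54.1 with knockdown supernatant at 3 h, and 36.7 to 41.9 against 37.2 to 40.2 at 6 h. None of the 5 was called at either time, and their median log2 fold change was -0.31 at both. At 3 h Cd14, which fat cells and fibroblasts can also express, measured 0.54 (limma adjusted p = 0.087) and Itgam 0.34, while Csf1r, Lyz2 and Fcgr1 measured -0.31, -0.39 and -0.62. The sum over 4 hepatocyte markers was 4.71 to 4.93 against 4.58 to 4.78 at 3 h and 4.42 to 4.64 against 3.78 to 3.96 at 6 h, where Cyp2e1 was called lower (-0.81; adjusted p = 0.035). The part of either marker list in the members' responses was not tested.

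**Figure D2:**
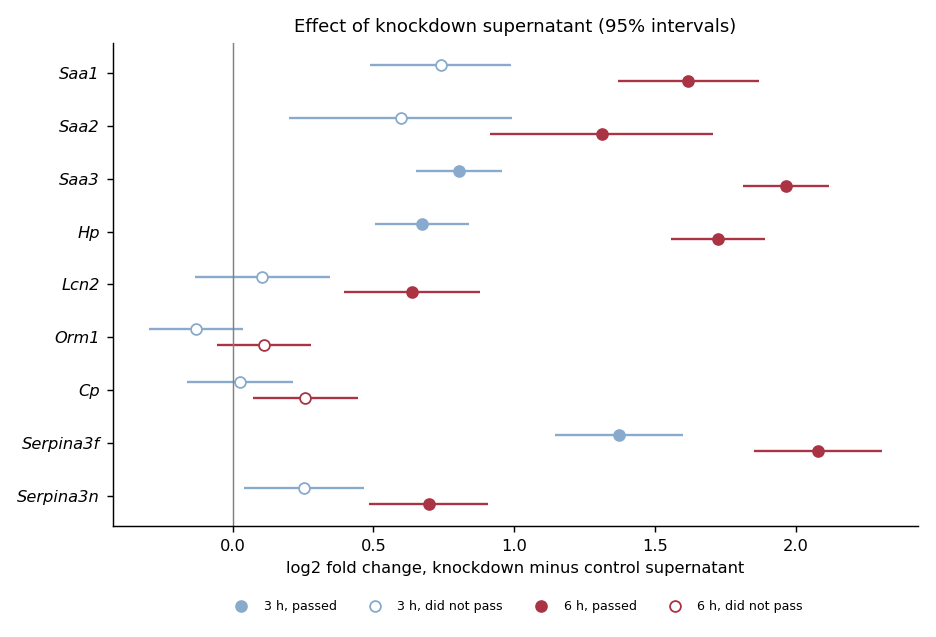
Log2 fold change, knockdown minus control supernatant, of the 9 measured members at 3 h and 6 h, from limma with 2 arrays per group. Bars are 95% intervals, filled points passed at an adjusted p under 0.05; Serpina3f, Saa3, Hp and Saa1 lie highest at 6 h, and Orm1 and Cp have open points at both times.

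**Figure D3:**
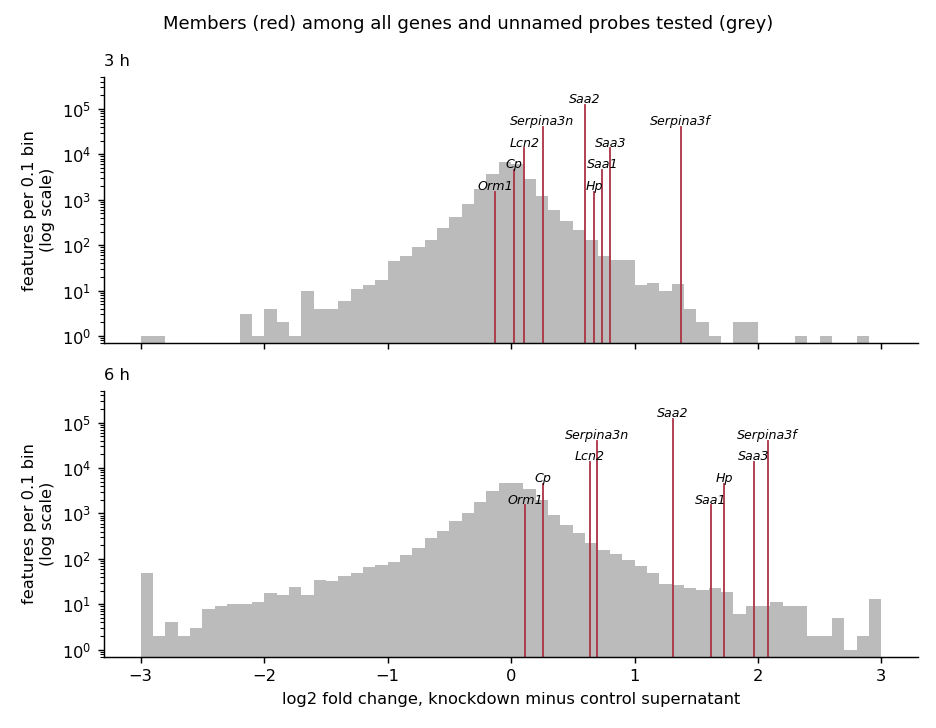
Number of features per 0.1 of log2 fold change (grey, log axis, values beyond ±3 drawn in the end bins) for all 25804 genes and unnamed probes tested at 3 h (top) and 6 h (bottom), with the 9 members as red lines whose heights carry no value. At 6 h Serpina3f, Saa3, Hp, Saa1 and Saa2 lie in the right tail, and Orm1 and Cp near the middle.

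The effect of the knockdown supernatant had a higher point estimate at 6 h than at 3 h for all 9 members, though none passed the test of that difference. The effect at 6 h exceeded that at 3 h by 1.16 ± 0.087 for Saa3 (95% interval 0.95 to 1.38; limma adjusted p = 0.0823), 1.05 ± 0.095 for Hp (adjusted p = 0.128) and 0.88 ± 0.14 for Saa1 (adjusted p = 0.281). The excess was 0.71 ± 0.23 for Saa2, 0.71 ± 0.13 for Serpina3f, 0.53 ± 0.14 for Lcn2 and 0.44 ± 0.12 for Serpina3n (adjusted p = 0.514, 0.349, 0.432 and 0.458). The Serpina3f value rested on its brighter probe, since the mean of both probes gave 0.17 (adjusted p = 0.838). Orm1 and Cp had the smallest, 0.24 ± 0.095 and 0.23 ± 0.11. Over all features limma called 0 for this difference (0%), against 2267 (8.79%) at an unadjusted p under 0.05, and 8 of the 9 members were among the latter. Saa3 passed with a trend of variance on intensity in eBayes (adjusted p = 0.00851), with features detected on all 8 arrays (0.0469), and without either control array of 6 h (0.0178 without replicate 1 and 0.021 without replicate 2). Hp passed with the trend (0.0214) and without either control array of 6 h (0.019 and 0.028).

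Most members were higher at 6 h than at 3 h in both supernatants. From 3 h to 6 h with control supernatant, 6 of 9 were higher and 0 lower, against 16.3% of all features called higher and 23.6% lower. Those were Serpina3f at 0.67 ± 0.092, Saa3 at 0.66 ± 0.061, Saa2 at 0.56 ± 0.16, Saa1 at 0.54 ± 0.10, Hp at 0.47 ± 0.067 and Serpina3n at 0.46 ± 0.086, the limma adjusted p between 0.000673 for Saa3 and 0.0376 for Saa2. Lcn2 measured -0.19 ± 0.097 (adjusted p = 0.185), Orm1 -0.18 ± 0.068 and Cp 0.14 ± 0.076. The scaling, background correction, filter or fit decided some of these values. Orm1 was called lower with array medians (-0.36; adjusted p = 0.0148) and with quantile normalization (-0.39; 0.00709), and turned just above 0 with normexp. Cp was called higher with quantile normalization (0.30; 0.0293) and turned just below 0 with array medians. Serpina3n was lost with array medians (0.0501), without scaling (0.0626) and with only the 4 arrays compared (0.0503). Saa2 was lost with array medians (0.0584), quantile normalization (0.0797), normexp (0.435), array weights (0.0683), no filter (0.109) and only the 4 arrays compared (0.11). With array medians 4 members were thus higher and 1 lower. With only the 4 arrays compared, a further member beside Saa2 and Serpina3n was lost. With knockdown supernatant 8 of 9 were higher and 0 lower over the same interval, against 17.7% and 22.2% of all features. Saa3 was higher by 1.82 ± 0.061, Hp by 1.52 ± 0.067, Saa1 by 1.42 ± 0.10, Serpina3f by 1.38 ± 0.092, Saa2 by 1.27 ± 0.16, Serpina3n by 0.90 ± 0.086, Cp by 0.38 ± 0.076 and Lcn2 by 0.34 ± 0.097 (adjusted p between 9.44e-05 for Saa3 and 0.0363 for Lcn2). Orm1 measured 0.058 ± 0.068, a sign that turned with array medians and with quantile normalization. The control call of Saa2 held only when control 3 h replicate 1 or control 6 h replicate 2 was left out (up to 0.165 otherwise). With knockdown supernatant, Cp was lost without any 1 knockdown array (up to 0.0637), and Lcn2 without any 1 array of 3 h or knockdown 6 h replicate 2 (up to 0.169). Both were also lost with array medians (0.061 for Cp and 0.149 for Lcn2), without scaling (0.0856 and 0.129) and without the filter (0.0643 and 0.13), and Lcn2 with only the 4 arrays compared (0.0718) and with the replicate block (0.0517). Saa2 stayed called but measured 0.67 with normexp. These comparisons share arrays with those between supernatants. The change over time with knockdown minus that with control supernatant is the same quantity as the 6 h effect minus the 3 h effect.

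**Figure D4:**
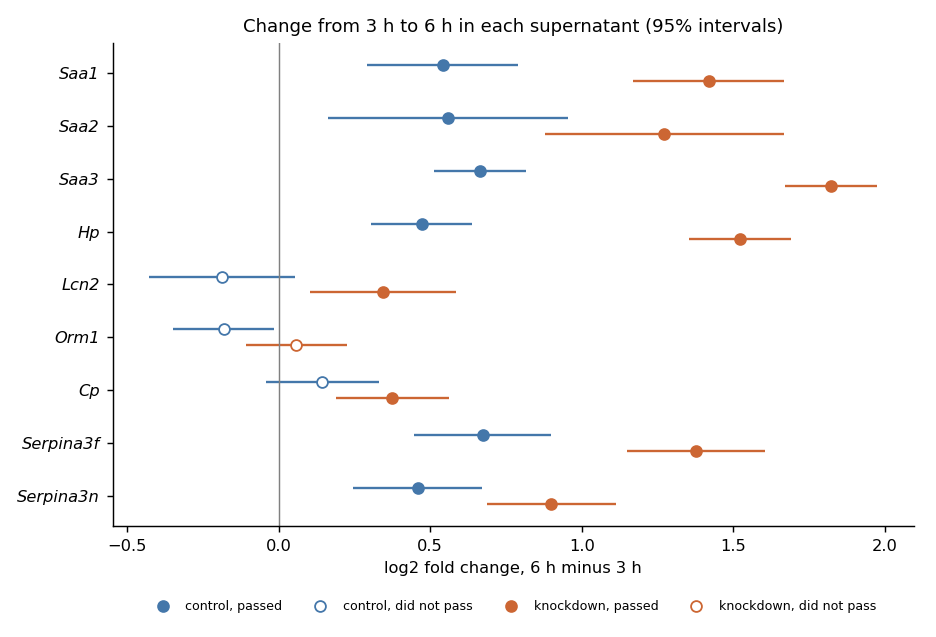
Log2 fold change from 3 h to 6 h of the 9 measured members in control and in knockdown supernatant, from limma with 2 arrays per group. Bars are 95% intervals and filled points passed. The knockdown point lies to the right of the control point for all 9, which restates the higher effect at 6 h than at 3 h.

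Of the 10 members, 8 had a promoter window in RefSeq, which were Saa1, Saa2, Saa3, Lcn2, Cp, Serpina3f, Serpina3g and Serpina3n. Those of Hp and Orm1 were not used here. TTGCNNAA matched in at least 1 window of 6 of these 8, all but Serpina3g and Serpina3n, and in 10.8% of all 32851 windows of 300 bases. Cp and Serpina3f have 2 overlapping windows each, and Saa1 and Saa2 are near-copies, so these are not 6 independent sequences. In Cp, which did not pass at either time, 1 of the 2 windows carried the match. TTCNNNGAA matched in Serpina3f and Serpina3g only, 2 of 8, and in 8.3% of all windows. The kappaB consensus bound by NF-kB matched in Serpina3g alone, 1 of 8, and in 8.46% of all windows. Both strands were searched and no matches of different motifs overlapped in the members. Matches describe the letters in these windows only.

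The genes around both clusters gave no calls, where limma called 0.244% of all features at 3 h and 2.28% at 6 h. At such shares, 0 calls among so few genes does not set them apart from other features. Of the 10 protein-coding genes that flank the Saa cluster, 5 on each side, 8 were tested and 0 were called at 3 h or at 6 h in limma, with log2 fold changes between -0.23 and 0.69 at 3 h and between -0.23 and 0.89 at 6 h. The highest at 6 h was Kcnc1, a potassium channel gene (adjusted p = 0.186). Of the 10 genes flanking the Serpina3 cluster 6 were tested and 0 called, between -0.47 and 0.32 at 6 h. Within that cluster, 5 of 8 further paralogs were tested and 2 were higher at 6 h, against 2.28% of all features called in either direction. These were Serpina3i with 1.78 ± 0.18 (adjusted p = 0.0139), which lies beyond Serpina3g from Serpina3f, and Serpina3b with 0.60 ± 0.083 (0.0307). With the mean of its probes in place of the brightest, Serpina3i measured 1.33, still called (limma adjusted p = 0.0205). Serpina3h measured 0.84 ± 0.15 (0.0555) and Serpina3c -0.17 ± 0.18 (0.649), the latter turning above 0 with array medians. At 3 h, where limma called 0.244% of all features in either direction, none of the 5 passed, with 0.96 ± 0.18 for Serpina3i (0.135). Serpina3i was lost at 6 h without either knockdown array of 3 h (adjusted p = 0.0561 for each), and Serpina3b when any 1 array other than a control array of 6 h was left out (up to 0.119). Without the filter both were lost, and Serpina3b also without scaling, with normexp, array weights or the replicate block.

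Some other genes listed as acute phase proteins, not all of them for secreted proteins, were higher at 6 h as well. Of 30 listed, 20 were tested; 0 passed at 3 h and 5 were higher at 6 h, against 0.225% and 1.6% of all features, with a median log2 fold change of 0.062 and 0.05. They included Slc39a14, a zinc and iron importer (1.17 ± 0.082; limma adjusted p = 0.0075), the metalloreductase gene Steap4 (0.72 ± 0.093; 0.0263), the pattern recognition gene Ptx3 (0.69 ± 0.10; 0.0338) and Lrg1, a leucine-rich plasma glycoprotein. Lrg1 was detected on neither control array of 6 h, so its fold change there rests on undetected control readings. It measured 1.80-fold higher (limma adjusted p = 0.0196, log2 0.85, 95% interval 0.61 to 1.09), or 0.72 on the log2 scale without control 6 h replicate 1. With normexp it measured 0.19, and the call was lost (0.271). Slc39a14 passed whichever array was left out. Steap4, Ptx3 and Lrg1 were each lost without any 1 of the 4 knockdown arrays (up to 0.12, 0.113 and 0.0949), and Ptx3 and Lrg1 also without either control array of 3 h, Steap4 and Ptx3 without control 6 h replicate 1. The calls of Slc39a14, Steap4, Ptx3 and Lrg1 were also lost without scaling or without the filter. Crp, Apcs, Fgb, Fgg, A2m, Hamp, Itih3, Saa4 and Serpina1d were detected on no array. Of 7 negative acute phase proteins, which fall in the liver response, only transferrin (Trf) was tested, at -0.18 ± 0.20 at 3 h and -0.14 ± 0.20 at 6 h, neither passing and its sign not stable under other scalings at 6 h.

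Inducers of the response were called too. Of 19 listed inducers and receptors 15 were tested, with 1 higher at 3 h and 3 at 6 h, against 0.225% and 1.6% of all features. Il6 was higher by about the same amount at both times, 1.66 ± 0.090 (limma adjusted p = 0.0124) and 1.64 ± 0.090 (0.00424), a difference of -0.015 with a 95% interval from -0.33 to 0.30. Its own level fell from 3 h to 6 h, by 0.74 ± 0.090 with control and by 0.76 ± 0.090 with knockdown supernatant. The cytokine gene Clcf1 (0.79 ± 0.091; adjusted p = 0.0201) and the oncostatin M receptor gene Osmr (0.54 ± 0.076; 0.0312) were higher at 6 h. Il6 passed at 6 h whichever array was left out, while Clcf1 and Osmr were lost when any 1 array other than a control array of 6 h was left out (up to 0.0807 and 0.126), and without scaling, without the filter or with array weights. Osm, Il1a, Il1b and Tnf were detected on no array.

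Of 19 transcription and feedback genes 17 were tested, and 3 were higher at 3 h and 7 at 6 h, against 0.225% and 1.6% of all features. Socs3, the feedback inhibitor of STAT3 signalling, was higher by 1.25 ± 0.082 (limma adjusted p = 0.0171) and 1.10 ± 0.082 (0.00785). Cebpd, a C/EBP factor of the acute phase, was higher by 1.10 ± 0.085 (0.0244) and 1.22 ± 0.085 (0.00744). Bcl3, an NF-kB cofactor, missed at 3 h with 0.57 ± 0.067 (0.0591) and was higher at 6 h by 0.86 ± 0.067 (0.00845). The differences between times were -0.16 for Socs3, 0.11 for Cebpd and 0.29 for Bcl3, none of them called. Fos was higher by 0.95 ± 0.079 (0.0294) and 0.89 ± 0.079 (0.0107), the latter lost without knockdown 6 h replicate 1 (0.055). Hnf4a, a liver transcription factor, was detected on no array. All 3 calls at 3 h in this list and that of Il6 were lost without any 1 of the 4 arrays of 3 h or either knockdown array of 6 h (adjusted p up to 0.268). They were lost too without scaling, without the filter and with the replicate block, as were, without scaling or without the filter, the 6 h calls of Socs3, Cebpd, Bcl3 and Fos.

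Of 14 receptors and partners of acute phase proteins 10 were tested, with 0 called at 3 h and, at 6 h, 1 lower and 0 higher, against 0.682% and 1.6% of all features. That was Slc40a1, the cellular iron exporter ferroportin, with -0.63 ± 0.088 between supernatants at 6 h (limma adjusted p = 0.0307). It read 1.35 and 1.32 for control, then 0.60 and 0.81 for knockdown supernatant at 6 h. The call was lost without any 1 array of 3 h and without replicate 1 of either 6 h group (up to 0.0988), and with array medians (0.075), no scaling, no filter, array weights or the replicate block. From 3 h to 6 h Slc40a1 was higher with control supernatant (0.81 ± 0.088; adjusted p = 0.00116) and measured 0.26 ± 0.088 with knockdown supernatant (0.065). The Saa receptor gene Tlr2 measured 0.31 ± 0.055 at 6 h (adjusted p = 0.0585). Also uncalled at 6 h were Mmp9 at 0.22 ± 0.075, Ager at -0.24 ± 0.24 and Fpr2 at -1.04 ± 0.44 (limma adjusted p = 0.207, 0.618 and 0.273). Ager and Fpr2 were detected on no array of 6 h, so their values there rest on undetected readings.

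**Figure D5:**
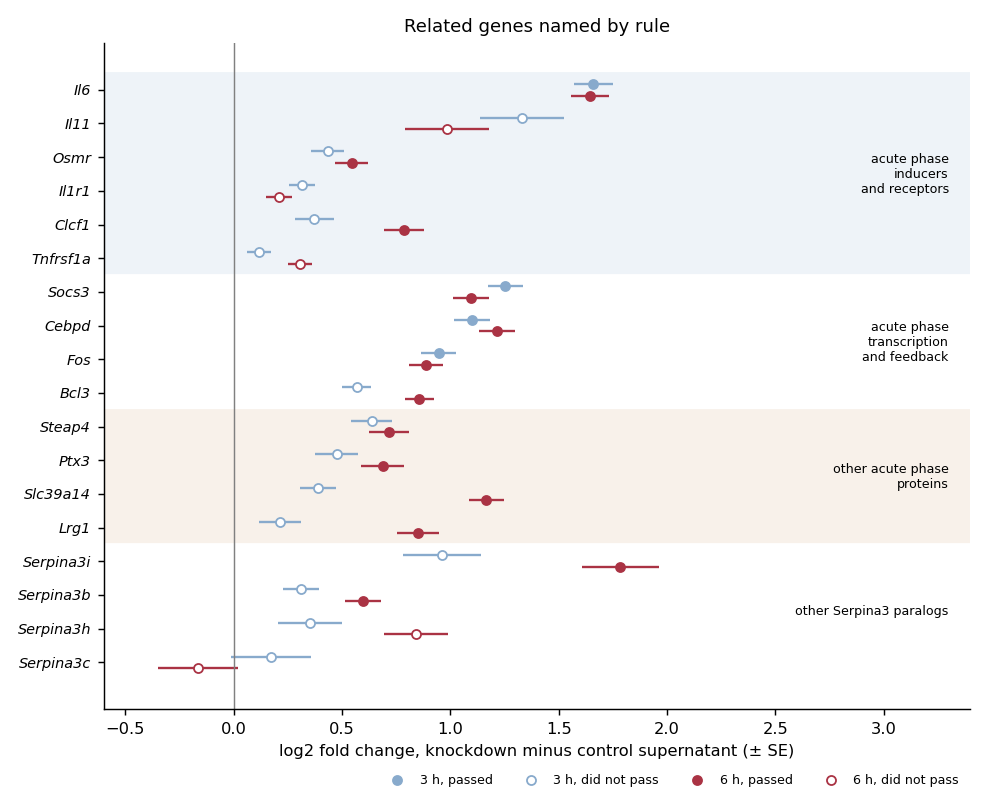
Log2 fold change, knockdown minus control supernatant, of related genes, taken from those with the 4 smallest p per list and time, at 3 h and 6 h. Bars are ± 1 SE from limma with 2 arrays per group and filled points passed; Il6, Socs3, Cebpd and Fos have filled points at both times, and Serpina3i and Slc39a14 at 6 h alone.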

How the data were processed

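Total RNA was labelled with Cy3 and hybridised to 8 one-colour Agilent arrays on 1 slide. The deposited intensity values are the processed signals that the scanner software wrote, background-corrected per the file headers; Agilent Feature Extraction 10.7.3.1 is named in the submitters' processing notes. The deposited value table holds log2 values equal to log2 processed signal minus 1 shift per array, and was used as an alternative.

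Log2 processed signal minus each array's 75th percentile was the main measure. Control spots and outlier readings were left out, and spots of a probe averaged. Of 55681 probes, 27235 were named by RefSeq transcript, 20 by symbol or synonym, and 28426 stayed unnamed. The brightest probe stood for a gene. Features detected (marked well above background) on both arrays of 1 group or more were fitted in limma 3.58.1 (R 4.3.3) with 4 group means, and called at a Benjamini-Hochberg adjusted p under 0.05 over all features. With 2 arrays per group, the 4 residual degrees of freedom limit the precision. The script was tested on simulated data, with 50 changed features per effect size in the 6 h comparison. It called 10% of true log2 changes of 0.5, 70% of 1, 90% of 1.5 and 94% of 2. A feature that was not called may thus still have changed by a modest amount. Promoter windows came from RefSeq (GRCm38.p6).

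The members and lists were chosen with earlier results of these data known. Genes named beside the members were up to 4 per list with the smallest p at each time, called or not, the 5 most correlated with Saa3 and with Lcn2 over the arrays, and flanking genes; Kcnc1 was named after its value was seen. Genes that gave no signal are named by list. Alternatives covered scaling, background, filter, probe choice, fit and each array left out. The level of USP2 in the HL-60 cells was not analysed here. Some listed genes are counted but not reported here by name.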

Additional observations from a re-analysis of the deposited data

How the results depend on the processing

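The direction and call were kept in 1671 of the recomputed values; 244 lost the call, 50 gained one and 15 changed sign. Members called at 3 h numbered 3, but 0 without scaling, without the filter, with only the 4 arrays compared or with the replicate number as a block, and 0 to 2 with an array left out. At 6 h the 7 became 3 without the filter, 0 with only the 4 arrays compared, 4 with array weights, 5 with the block, 5 without scaling, 6 with normexp and 4 to 7 with an array left out. The difference between times gave 0, but 1 with features detected on all arrays, 2 with an intensity trend and 0 to 2 with an array left out. For time, 6 in control supernatant became 3 with only the 4 arrays compared and 5 to 6 with an array left out, and with array medians 5 were called, of which Orm1 was lower; 8 in knockdown supernatant became 6 with array medians, without scaling or without the filter, 7 with the block or with only the 4 arrays compared and 6 to 8 with an array left out. Deviations between replicates correlated at -0.046 to 0.087 from group to group, so arrays of the same replicate number shared little. This cannot show whether the numbers pair the arrays, which the labels do not say. The block left 0 of 63 features called at 3 h and 220 of 588 at 6 h. Features called at 3 h were 36 with array medians, 118 with normexp, 195 with the all-array filter, 287 with the trend and 310 with weights. At 6 h they were 1351 with array medians, 87 without scaling, 18 without the filter, 190 with weights and 1189 with the trend. Array medians moved the median of all features by 0.18 at 6 h, by 0.11 for the difference and by -0.17 for time in control supernatant; no scaling moved it by 0.16 for time in knockdown supernatant.

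Signs changed for Cp at 3 h (-0.026 without scaling, -0.0077 with normexp, -0.018 without control 3 h replicate 2) and over time in control supernatant (-0.031 with array medians). They changed for Orm1 over time (0.0046 with normexp in control; -0.0095 with array medians and -0.061 with quantile normalization in knockdown supernatant). With an array left out, Trf ranged from -0.41 (without control replicate 2) to 0.052 (without control replicate 1) at 3 h and from -0.35 (replicate 1) to 0.079 (replicate 2) at 6 h. At 6 h it was 0.046 with array medians and 0.041 with quantile normalization. Serpina3c ranged from -0.079 to 0.42 at 3 h without either control array and gave 0.017 at 6 h with array medians. Ager gave 0.071 at 6 h with quantile normalization and -0.54 to 0.068 without either knockdown array. The cause was not tested. Dim probes (Saa2, Orm1, the dimmer Serpina3f) lie nearest to background; with normexp Saa2 measured 0.77 at 6 h and 0.67 over time in knockdown supernatant.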

Other observations

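Profiles over the 8 arrays were compared among 13757 named non-member genes, as a description in which all points share arrays and groups. Of the members, which this ranking left out, Hp (r = 0.998) and Saa1 (0.995) were closer to Saa3 than any gene in it. The non-member genes most like Saa3 were Bpgm (r = 0.993), Gnb4 (0.992), Cck, which encodes cholecystokinin (0.990), Upp1 (0.990) and Lrrc32 (0.989). Cck measured 0.46 at 3 h and 1.78 at 6 h, knockdown minus control supernatant on the log2 scale, and Upp1, a uridine phosphorylase, 0.26 and 0.93. Those most like Lcn2 were the matrix protease gene Mmp3 (r = 0.978), the protease inhibitor gene Slpi (0.975), Layn (0.971), the NF-kB subunit gene Relb (0.970) and Gsto2 (0.968). Relb measured 0.12 at 3 h and 0.70 at 6 h, beside 0.11 and 0.64 for Lcn2, and Slpi 0.078 and 0.52.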
